A study of Mus musculus with 10 samples.

Results

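The 7 loci described here hold early lineage regulators, genes whose proteins direct cells of the early embryo into their first tissues: Sox17, Gata6 and Gata4 for endoderm, Cdx2 for trophectoderm, Otx2 and Pax6 for neuroectoderm, and T for mesoderm. They were chosen by name and placed at fixed mm9 positions, 4.48 Mb of chromosome 1 for Sox17, 11.05 Mb of chromosome 18 for Gata6, 63.82 Mb of chromosome 14 for Gata4, 105.51 Mb of chromosome 2 for Pax6, 148.11 Mb of chromosome 5 for Cdx2, 49.28 Mb of chromosome 14 for Otx2 and 8.63 Mb of chromosome 17 for T. The genome was represented by 2575 adjoining windows of 1 Mb, which also cover the regions of the loci. Together with the windows centred on the 7 loci there were 2582 windows in all. Positions are given to 10 kb, which is also the width of the bins in which contacts were counted. The positions and the lists used were chosen with earlier results of these data known.

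Chromosome contacts came from exo-Hi-C, a form of Hi-C in which exonucleases remove linear DNA after ligation. The cells were mouse embryonic stem cells of the line ES-E14TG2a, kept without feeder cells in medium with LIF, the GSK3 inhibitor CHIR99021 and the MEK inhibitor PD0325901, and all genotypes shared these conditions. Each of 5 genotypes had 2 libraries. WT cells are the controls without a deletion, E1-KO, E2-KO and E3-KO cells each lack the enhancer of that name, and E1&E3-dKO cells lack both E1 and E3. The labels give neither the position of the enhancers nor whether the libraries of a genotype came from separate clones or cultures, so the p-values cover no more than the spread among these libraries, which may be technical. No expression was measured, so the cell type could not be checked against its markers. The prefix w326, whose meaning the labels do not give, stands in the titles of 4 libraries: E3-KO replicate 2, WT replicate 1 and E2-KO replicates 1 and 2.

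A topologically associating domain, or TAD, is a stretch of chromosome whose parts touch each other more often than they touch the sequence beyond its boundaries. Boundaries often coincide with sites of the insulator protein CTCF, and enhancers mostly act on genes within the same domain. In stem cells held in this medium the lineage regulators are largely silent and become active in some lineages as cells leave pluripotency.

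The lists differ in size, and this touches every count below. They held 2715 TADs in E1-KO replicate 1 to 7962 in E2-KO replicate 1, with a median length of 260 kb in the former and 90 kb in the latter, and 466 interactions in WT replicate 2 to 6014 in E1&E3-dKO replicate 2. The number of reads per library is not in these lists. A window of 1 Mb held on average 1.94 and 2.40 boundaries in the WT libraries and from 1.86 to 5.80 in the knockout libraries. E2-KO replicate 1 stands apart, and values without it are given where they change a statement.

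The promoters of T and Cdx2 are shown because a boundary lay within 40 kb of these genes in 6 of 10 libraries and each has a single start site in the RefSeq promoter table, which holds 4 of the 7 genes. The table is on GRCm38.p6, not on the mm9 build of the lists, and was matched by symbol. Each line gives the 250 bases before the start, 5′ to 3′ on the strand of the gene; capitals mark CCCTC or its reverse complement GAGGG, the repeat after which CTCF is named.
T, GRCm38.p6, chr17:8434173-8434422, plus strand: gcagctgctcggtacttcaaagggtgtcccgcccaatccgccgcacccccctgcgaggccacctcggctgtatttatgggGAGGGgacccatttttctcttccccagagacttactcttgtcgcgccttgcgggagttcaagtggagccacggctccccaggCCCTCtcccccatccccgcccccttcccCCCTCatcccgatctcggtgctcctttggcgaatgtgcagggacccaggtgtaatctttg
Cdx2, GRCm38.p6, chr5:147307250-147307499, minus strand: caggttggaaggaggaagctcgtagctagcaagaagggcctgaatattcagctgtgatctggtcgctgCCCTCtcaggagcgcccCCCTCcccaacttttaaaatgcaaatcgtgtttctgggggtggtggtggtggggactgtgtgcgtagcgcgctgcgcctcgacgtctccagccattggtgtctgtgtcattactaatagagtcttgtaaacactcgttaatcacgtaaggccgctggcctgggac
The T promoter holds 3 such matches and the Cdx2 promoter 2, and 60.5% of 32851 promoters of this length hold at least 1. A match describes these letters and is not a measured binding site. The T and Cdx2 promoters hold 14 and 13 CpG dinucleotides, against a median of 6 over all promoters. As many or fewer are held by 72.7% (T) and 70.6% (Cdx2) of promoters, so neither number is unusual.

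A boundary count here is the number of distinct TAD edges within 500 kb of a position, with edges of 1 library closer than 20 kb counted as 1. Summed over the 7 loci there were 17 and 15 boundaries in the WT libraries and between 17 and 39 in the knockout libraries, the highest in E2-KO replicate 1. The loci were about as rich in boundaries as the genome: their mean count was 0.89 to 1.31 times that of all windows in the same library, 1.07 ± 0.25 (SD, n = 2) in WT and 1.10 ± 0.14 (n = 8) in the knockouts. By this ratio the loci ran from Gata4 with 1.91 ± 0.60 (SD, n = 10 libraries) through Gata6 with 1.24 ± 0.70, Cdx2 with 1.01 ± 0.64, T with 1.00 ± 0.55, Pax6 with 0.97 ± 0.32 and Otx2 with 0.81 ± 0.57 to Sox17 with 0.75 ± 0.37. Each step in this order was smaller than the SD of either neighbour except that from Gata4 to Gata6, which also did not exceed the SD of Gata6.

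**Figure D1:**
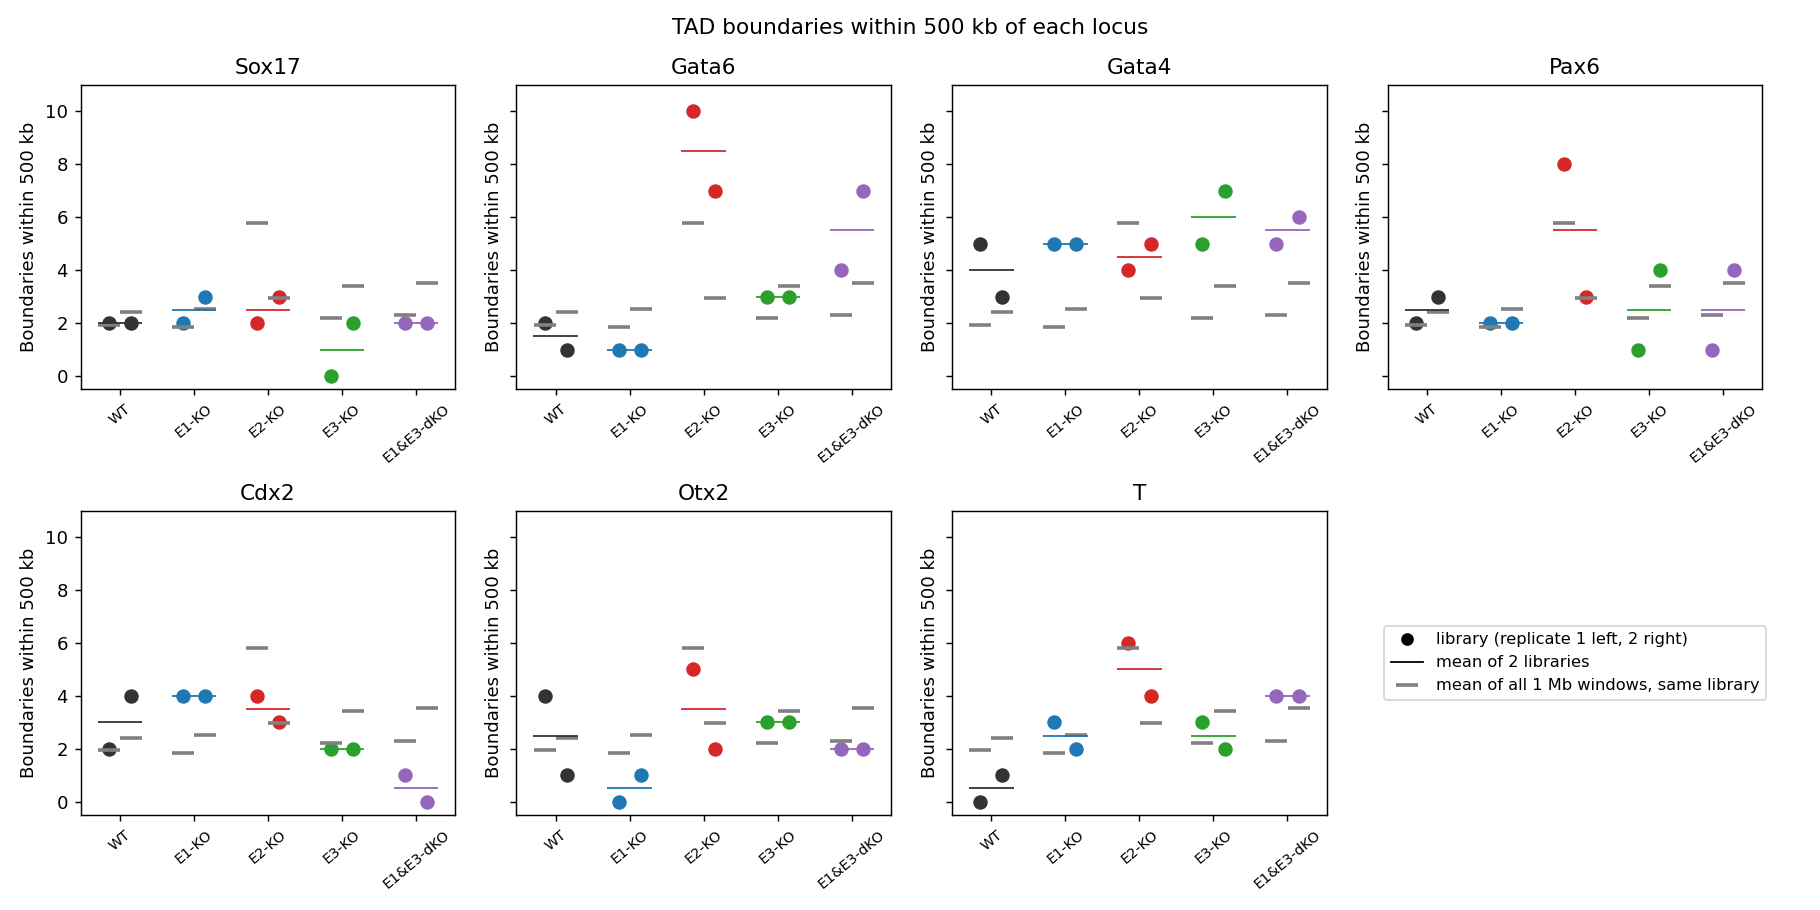
Number of TAD boundaries within 500 kb of each locus (vertical axis, count) by genotype; each dot is a library, the coloured line the mean of 2 libraries and the grey dash the mean over all 1 Mb windows of the same library. At T the WT libraries hold 0 and 1 boundaries and every knockout library holds 2 to 6, while at Gata6 E2-KO reaches 7 and 10.

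Only T separated all knockout libraries from both WT libraries in boundary count. The permutation of the WT label over all 45 choices of 2 libraries, two-sided, gave no locus and no window an adjusted p under 0.05 (0 of 2582, 0%, with Benjamini-Hochberg over all windows); 12 windows (0.465%) passed unadjusted, and T was among them at the smallest p the design allows (exact permutation p = 0.0222, adjusted p = 1.0). With 0.0222 as its smallest p, this permutation could pass the adjustment only if a large share of all windows reached that value. A lone locus could not be called, so the 0 calls do not show that the loci are alike in WT and knockouts. All 8 knockout libraries lay above both WT libraries in 25 windows (0.968%) and below both in 0. The test over all 945 pairings of the libraries, one-sided, which asks whether libraries of a genotype resemble each other, also called 0 windows (0%) after adjustment and 84 (3.25%) before it. Gata6 (exact permutation p = 0.00635) and T (exact permutation p = 0.0159) were among those 84, both with an adjusted p of 1.0, and the other 5 loci lay between 0.0667 and 0.778. A single knockout against WT cannot reach an exact p under 0.333, and is therefore described by its values alone.

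**Figure D2:**
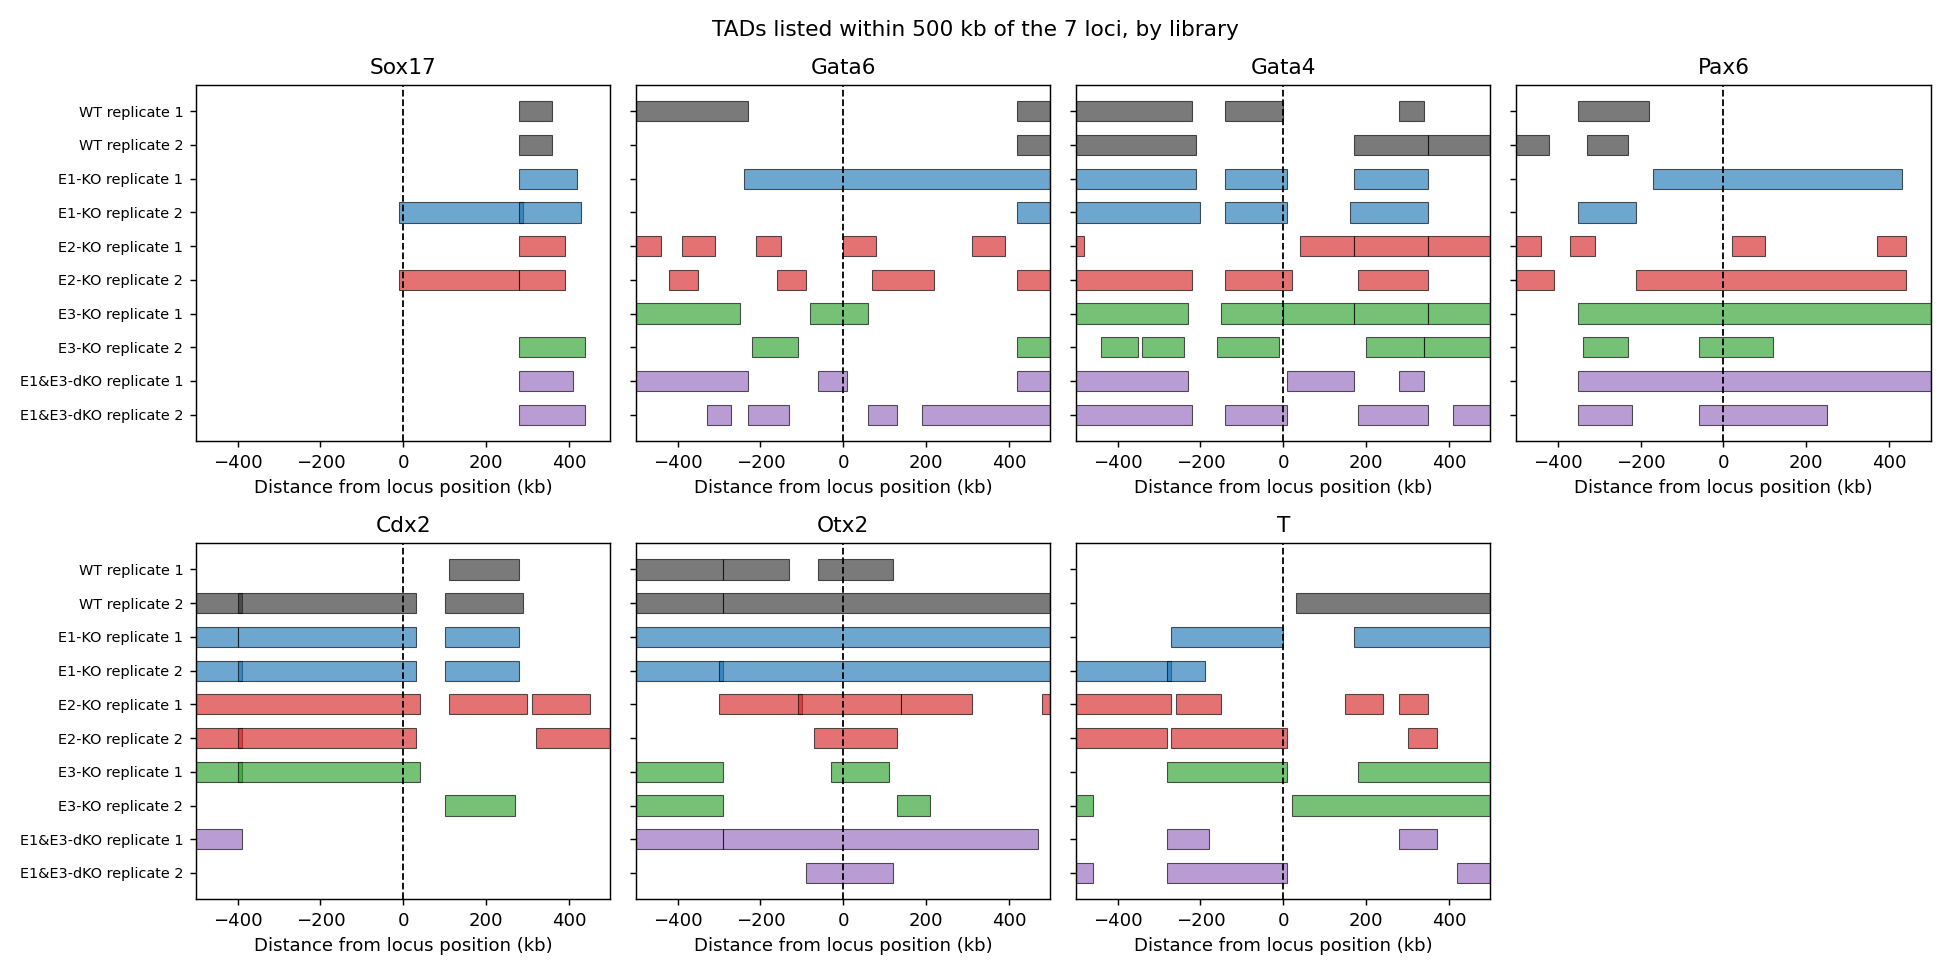
TADs of each library within 500 kb of the 7 loci; the horizontal axis is the distance from the locus position in kb, each bar is a listed TAD clipped at the window's edge, and the dashed line is the position. No WT bar crosses the line at Sox17, Gata6, Gata4, Pax6 or T, whereas 9 of 10 libraries have a bar over Otx2.

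The TADs over the loci had scores near the medians of all TADs. A TAD held the position in 35 of 70 combinations of locus and library, and its score, a number from the deposited lists that is never under 1.5, had a median of 1.73 and a range from 1.509 to 2.382, with 32 of 35 under 2. The median score over the whole list was between 1.67 and 2.05 in the 10 libraries. WT libraries held 3 of 14 positions (21.4%) and knockout libraries 32 of 56 (57.1%), beside 43.3% and 42.8% of the window centres. At 5 of the loci no WT library had a TAD over the position. Part of this rests on distances of 1 or 2 bins: when TADs ending within 20 kb also counted, the numbers were 4 of 14 and 37 of 56. No test was made over the loci together.

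Sox17, a transcription factor of definitive and primitive endoderm that lies between Rp1 and Mrpl15 in gene order, had a fixed boundary on its right and none beyond 10 kb on its left. The boundary at 4.76 Mb, 280 kb to the right, was listed in 9 of 10 libraries, at 280 kb in 8 of them and 285 kb in E1-KO replicate 2. E3-KO replicate 1 alone lacked it and had no boundary within 500 kb, the nearest lying 600 kb away. The TAD that began at this boundary ended at different places: 360 kb from Sox17 in both WT libraries, and 390 to 440 kb in the 7 knockout libraries that held it. Hence the boundary at 4.84 Mb was in both WT libraries and in 0 of 8 knockout libraries, as were 27 of 27003 distinct boundaries (0.1%), and the boundary near 4.89 Mb was in both E1-KO libraries, both E2-KO libraries and E1&E3-dKO replicate 1 but in neither WT library. The WT and knockout ends do not overlap, but they lie 3 to 8 bins apart, and when boundaries within 50 kb were matched they became 1 boundary of 9 libraries.

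A TAD over Sox17 itself was listed only in E1-KO replicate 2, from 4.47 to 4.77 Mb with a score of 1.536, and in E2-KO replicate 2, from 4.47 to 4.76 Mb with a score of 1.797. Both begin 10 kb before the position and run to the recurrent boundary. The count of boundaries was 2 and 2 (WT), 2 and 3 (E1-KO), 2 and 3 (E2-KO), 0 and 2 (E3-KO), and 2 and 2 (E1&E3-dKO). The knockouts differed from WT by 0.0 (exact permutation p = 1.0, adjusted p = 1.0).

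Gata6, a GATA factor that starts primitive endoderm and lies between Mib1 and Rbbp8, showed the widest range. Its 1 Mb window held 2 and 1 boundaries (WT), 1 and 1 (E1-KO), 10 and 7 (E2-KO), 3 and 3 (E3-KO), and 4 and 7 (E1&E3-dKO). E1-KO thus lay within the WT values and the other 6 knockout libraries above both, with the most in E2-KO. These 6, a set chosen after the values were seen, lay above both WT libraries in 2.63% of all windows. Relative to all windows of the same library the E2-KO counts were 1.73 and 2.37 times the mean, those of E1&E3-dKO 1.73 and 1.98, those of E3-KO 1.36 and 0.88, those of E1-KO 0.54 and 0.39 and those of WT 1.03 and 0.42. On this scale all E2-KO and E1&E3-dKO libraries stayed above both WT libraries, and E3-KO replicate 2 did not. The 8 knockout libraries exceeded WT by 3.0 boundaries (4.5 ± 3.21 against 1.5 ± 0.71, SD, n = 8 and n = 2; exact permutation p = 0.267, adjusted p = 1.0), where the median difference over all windows was 0.88. With the 2715 best TADs of every library the difference was 0.62, and 4 knockout libraries, those of E2-KO (4 and 3 boundaries) and E1&E3-dKO (4 and 4), lay above both of WT (2 and 1), while E3-KO had 0 and 1.

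Many boundaries at Gata6 were in a single library. Of 17 distinct boundaries, the most at any of the loci, 8 were in 1 library and 2 in at least 5: at 10.82 Mb, 230 kb to the left, in 7 libraries, and at 11.47 Mb, 420 kb to the right, in 6 including both WT libraries. Boundaries at 10.72, 10.9 and 11.115 Mb were in both E2-KO libraries and neither WT library, and E1&E3-dKO replicate 2 held all 3 of them, beside E3-KO replicate 1 at 11.115 Mb. At 10.72 Mb the E2-KO libraries, at -310 and -350 kb, were matched only through E1&E3-dKO replicate 2 at -330 kb. A TAD covered Gata6 in 4 knockout libraries, 1 of each genotype, and in neither WT library. These TADs differed in length: 870 kb in E1-KO replicate 1, 80 kb in E2-KO replicate 1, 140 kb in E3-KO replicate 1 and 70 kb in E1&E3-dKO replicate 1, with scores from 1.509 to 1.726.

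Gata4, the GATA factor of primitive endoderm and later of heart and gut, lies between Neil2 and Blk and had the only boundary near the 7 loci that all 10 libraries listed. Of its 11 distinct boundaries 5 were in at least 5 libraries, at 63.68, 63.83 and 64.17 Mb and at 220 kb to the left and 170 kb to the right. The boundary at 64.17 Mb, 350 kb to the right, was in all 10 libraries at 340 or 350 kb. Over the genome 18.9% of 27003 distinct boundaries were in at least 5 libraries and 3.63% in all 10, and over the 7 loci 27.1% (19 of 70) and 1 of 70.

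A boundary lay almost on Gata4. The nearest boundary was at most 20 kb from the position in 8 of 10 libraries: at 0 and 170 kb (WT), 10 and 10 kb (E1-KO), 40 and 20 kb (E2-KO), 0 and -10 kb (E3-KO), and 10 and 10 kb (E1&E3-dKO). Of all window centres and loci 9.6% had a boundary that near in at least 5 libraries, a lower threshold than the 8 at Gata4, for which no share is given. WT replicate 2 was the library without one, and E2-KO replicate 1 had it 2 bins farther out. A TAD from 63.68 Mb to 63.83 or 63.84 Mb ended there in both E1-KO libraries, E2-KO replicate 2 and E1&E3-dKO replicate 2, with scores from 1.647 to 1.846. In WT replicate 1 the TAD at the same place stopped at 63.82 Mb, at the position itself, and E3-KO replicate 1 had a TAD that began there and ran to 63.99 Mb. Whether Gata4 counts as inside or outside this TAD therefore turns on a single bin. Counts were 5 and 3 in WT and from 4 to 7 in the knockout libraries (difference 1.25, exact permutation p = 0.311, adjusted p = 1.0), and the difference was -0.01 when counts were divided by the mean of each library. It was 2.25 without WT replicate 1 and 0.25 without WT replicate 2.

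Cdx2, the homeobox factor of trophectoderm and later of the hindgut, lies between Pdx1, a pancreatic regulator, and Urad. A TAD of 430 to 440 kb from 147.71 Mb to 148.14 or 148.15 Mb covered it in 5 libraries: WT replicate 2, both E1-KO libraries, E2-KO replicate 2 and E3-KO replicate 1. The scores of this TAD, 1.863 to 1.974, were above those of most TADs over the other loci. E2-KO replicate 1 held a longer one of 680 kb with the same right end and a score of 2.178. The shared right end lay 30 or 40 kb beyond Cdx2.

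The 4 libraries without a TAD over Cdx2 were WT replicate 1, E3-KO replicate 2 and both libraries of E1&E3-dKO. E1&E3-dKO held 1 and 0 boundaries in the window, against 2 and 4 (WT), 4 and 4 (E1-KO), 4 and 3 (E2-KO), and 2 and 2 (E3-KO). Both libraries lay below both of WT, as in 2.59% of all windows, and the mean of 0.5 ± 0.71 (SD, n = 2) differed from that of WT by -2.5. This genotype and direction were picked after the values were seen, so the share does not measure how unusual Cdx2 is. E1&E3-dKO replicate 1 still listed the TAD next to it on the left, from -630 to -390 kb. The boundaries at 148.21 and 148.39 Mb, 100 and 280 kb to the right, are the ends of a TAD listed in both WT libraries, both E1-KO libraries, E2-KO replicate 1 and E3-KO replicate 2, and neither was in E1&E3-dKO. These were 2 of the 3 boundaries that E1&E3-dKO lost at the 7 loci, where lost means held by both WT libraries and by neither knockout library. Of 44 boundaries in WT or this genotype those 3 were 6.82%, beside 2.28% over the genome. With equal numbers of TADs neither Cdx2 boundary counted as lost, since the TAD between them in WT replicate 2, with a score of 1.529, fell under the lowest score kept there, 1.588. All knockouts together differed from WT at Cdx2 by -0.5 (exact permutation p = 0.844, adjusted p = 1.0), and by 0.5 without WT replicate 2.

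TAD length at Cdx2 rested on 1 WT library. Its 430 kb stood against 430 to 680 kb in 5 knockout libraries, 0.14 higher on the log2 scale (exact permutation p = 0.833, where 0.167 is the smallest possible; adjusted p = 1.0), and 0.01 higher without E2-KO replicate 1. Of 1337 positions with a TAD in WT and in knockouts, 0 (0%) had a length difference with an adjusted p under 0.05 and 11 (0.823%) one with an unadjusted p under 0.05. Here too a lone position could not have passed the adjustment.

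Otx2, the homeobox factor of epiblast, forebrain and midbrain, lies between Tmem260 and Exoc5 and was in a TAD in 9 of 10 libraries, E3-KO replicate 2 being the exception; 16.4% of all positions were in a TAD in at least 9. The TADs were of 2 sizes. Short ones of 140 to 250 kb were listed in WT replicate 1 (180 kb), E2-KO (250 and 200 kb), E3-KO replicate 1 (140 kb) and E1&E3-dKO replicate 2 (210 kb). Long ones of 760 kb and more were listed in WT replicate 2 (800 kb), E1-KO (1950 and 860 kb) and E1&E3-dKO replicate 1 (760 kb). Both sizes occurred in WT and in E1&E3-dKO, so the genotypes overlap, and only E1-KO had long TADs in both libraries. Length differed between knockouts and WT by 0.10 on the log2 scale (exact permutation p = 0.833, adjusted p = 1.0), and was 1.18 without WT replicate 2. It turned to -0.97 without WT replicate 1, -0.27 without E1-KO replicate 1, -0.08 without E1-KO replicate 2 and -0.05 without E1&E3-dKO replicate 1.

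The long TADs at Otx2 began within 10 kb of a boundary at 48.99 Mb, 290 kb to the left, apart from the 1950 kb one of E1-KO replicate 1, which began at 47.88 Mb. That boundary was in 7 libraries including both of WT. The right end of the short ones, near 49.405 Mb and 125 kb to the right, was in 6 libraries including WT replicate 1. Boundary counts were 4 and 1 (WT), 0 and 1 (E1-KO), 5 and 2 (E2-KO), 3 and 3 (E3-KO), and 2 and 2 (E1&E3-dKO). The difference of knockouts from WT was -0.25 (exact permutation p = 1.0, adjusted p = 1.0), 1.25 without WT replicate 1 and 0.07 without E1-KO replicate 1.

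Pax6, the paired-box factor of eye, forebrain and pancreas, lies between Rcn1 and Elp4, whose introns hold enhancers of Pax6. No TAD covered it in WT, while 6 knockout libraries had one: 600 kb in E1-KO replicate 1, 650 kb in E2-KO replicate 2, 890 and 180 kb in E3-KO, and 940 and 310 kb in E1&E3-dKO. A position in a TAD in neither WT library and in at least 5 knockout libraries was found at 2.44% of all window centres and loci, and Gata4 and Pax6 were among them. No pair of the 6 TADs matched at both ends within 20 kb, and their scores, 1.55 to 1.62, were all close to the minimum of the lists. The 890 and 940 kb TADs shared their left end at 105.16 Mb, the 180 and 310 kb ones theirs at 105.45 Mb, and the 600 and 650 kb ones ended within 10 kb of each other, at 105.94 and 105.95 Mb.

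The TAD in WT next to Pax6 lay to its left and stopped 180 and 230 kb before it. The boundary at its left end, 350 kb from Pax6, was in 8 libraries, and that at 105.29 Mb, 220 kb to the left, in 5 with 1 library of each genotype. No boundary to the right of Pax6 was in more than 3 libraries. Counts were 2 and 3 (WT), 2 and 2 (E1-KO), 8 and 3 (E2-KO), 1 and 4 (E3-KO), and 1 and 4 (E1&E3-dKO), and the difference of knockouts from WT, 0.62 (exact permutation p = 0.844, adjusted p = 1.0), was -0.07 without E2-KO replicate 1.

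**Figure D3:**
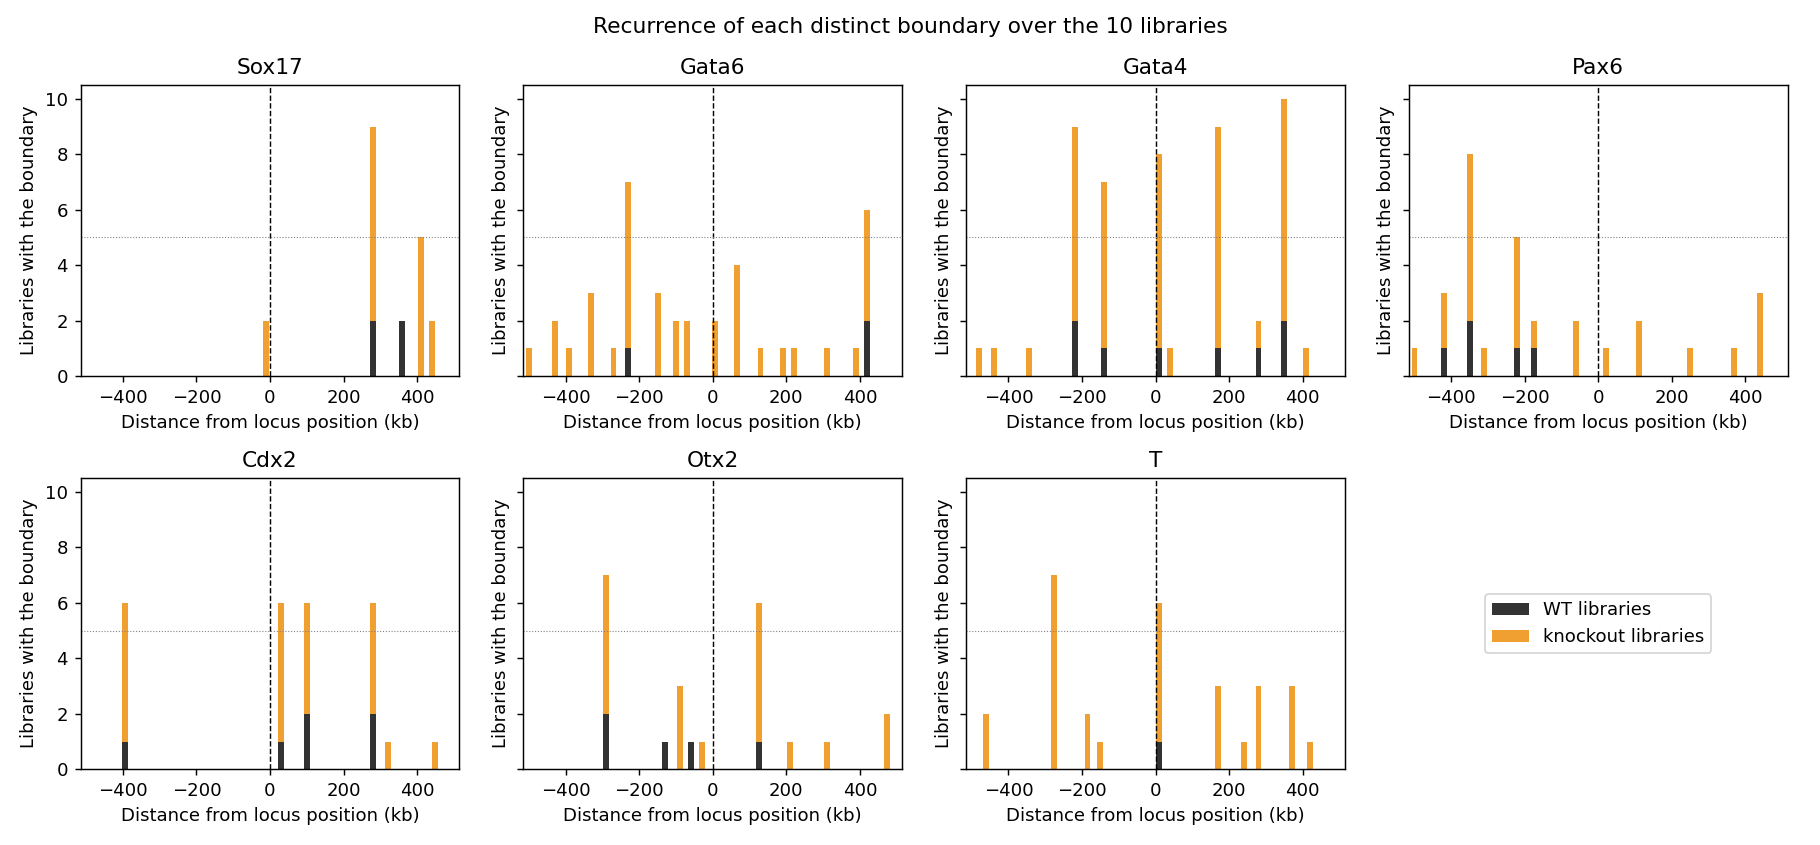
Every distinct boundary within 500 kb of the 7 loci by its distance from the position (horizontal axis, kb) and the number of libraries that list it (bar height, WT libraries dark and knockout libraries orange); the dotted line marks 5 libraries. The boundary 350 kb right of Gata4 reaches 10 libraries, and the one 275 kb left of T reaches 7 with no WT library.

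T, or Brachyury, the T-box factor of primitive streak and mesoderm, precedes Pde10a in gene order and was the locus whose WT and knockout counts did not overlap. Within 500 kb there were 0 and 1 boundaries (WT), 3 and 2 (E1-KO), 6 and 4 (E2-KO), 3 and 2 (E3-KO), and 4 and 4 (E1&E3-dKO). Every knockout library lay above both WT libraries (3.5 ± 1.31, SD, n = 8, against 0.5 ± 0.71, n = 2), beside the 0.968% of windows given above. The difference of 3.0 was 4.0 among the libraries titled w326 (0 in WT, 2 to 6 in 3 knockout libraries) and 2.2 among the others (1 in WT, 2 to 4 in 5 knockout libraries). It was 2.64 without E2-KO replicate 1 and 3.0 with the 2715 best TADs of every library, again with all 8 knockout libraries above WT. With a window of 250 kb the difference was 1.0 and 3 of 8 knockout libraries lay above both WT libraries, so most of it came from farther than 250 kb.

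Within 500 kb of T, WT replicate 1 listed no TAD and WT replicate 2 a single one, from 30 to 560 kb. The last boundary before T lay at -2400 and -2880 kb in WT, and between -460 and -150 kb in the knockout libraries. At 2.37% of 2532 positions were all 8 knockout libraries nearer than both WT libraries in this measure, which was chosen after its values were seen. To the right, the first boundary of WT replicate 1 was 1870 kb away, and that of WT replicate 2 was 30 kb away.

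A boundary near 8.355 Mb, 275 kb before T, was in 7 of 8 knockout libraries and in neither WT list. Its position varied from -280 to -265 kb among the 7, and E3-KO replicate 2, the exception, had its last boundary at -460 kb. With a score of at least 2 it was in 4 knockout libraries. Of the 27003 distinct boundaries 49 (0.181%) were in at least 7 knockout libraries and neither WT library, a pattern taken from the values at T. A second boundary lay beside T itself, within 30 kb in WT replicate 2, E1-KO replicate 1, E2-KO replicate 2, both E3-KO libraries and E1&E3-dKO replicate 2. In 3 libraries these were the ends of a TAD of 280 or 290 kb that held T near its right end: E2-KO replicate 2 (score 1.778), E3-KO replicate 1 (1.788) and E1&E3-dKO replicate 2 (2.382, the highest score of a TAD over any of the loci). In E1-KO replicate 1 a TAD began 270 kb before T and ended at the position.

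Long TADs to the left of T, chosen after their values were seen, were in 5 knockout libraries and in neither WT list, and each of their scores was above the highest score of a TAD over any of the loci. In 3 libraries they matched within 20 kb at both ends, and 3.88% of 21825 distinct TADs were likewise in at least 3 knockout libraries and neither WT library. This TAD ran from -1470 to -270 kb in E1-KO replicate 2 (score 2.903), from -1470 to -270 kb in E2-KO replicate 1 (11.072) and from -1460 to -280 kb in E2-KO replicate 2 (3.604). E3-KO replicate 2 (3.176) and E1&E3-dKO replicate 2 (2.525) listed another, which ended at -460 kb and began at -1510 and -1500 kb. The other 3 knockout libraries, replicate 1 of E1-KO, E3-KO and E1&E3-dKO, listed neither.

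By genotype, gained boundaries, held by both libraries of a knockout and neither WT library, numbered 10 of 55 in E2-KO at the 7 loci (18.2%, beside 6.04% over the genome), 2 of 29 in E1-KO (6.9%, beside 3.03%), 1 of 44 in E1&E3-dKO (2.27%, beside 3.78%) and 0 of 36 in E3-KO (0%, beside 3.26%). Of the 10 in E2-KO 4 were at Gata6 and 3 at T. Those at 10.72 Mb near Gata6 (-310 and -350 kb) and 49.19 Mb near Otx2 (-105 and -70 kb) lay farther than 20 kb apart in the E2-KO libraries. They were matched only through E1&E3-dKO replicate 2. With boundaries matched within 10 kb E2-KO gained 5. The boundary at 8.355 Mb was gained in E1-KO, E2-KO and E1&E3-dKO alike, and these comparisons share the WT libraries. With equal numbers of TADs per library E2-KO gained 4, and no share over the genome is given at that setting to set beside it. Lost boundaries numbered 1 in E1-KO (3.45%, beside 3.36%), 1 in E2-KO (1.82%, beside 1.76%) and 1 in E3-KO (2.78%, beside 1.93%), in each case the one at 4.84 Mb near Sox17.

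Interactions are pairs of 10 kb bins that the authors' test listed at an adjusted p of at most 0.01. They numbered 1.02 per locus and library at the 6 loci other than T and 2.5 per library at T. All windows of 1 Mb held 1.23 per window and library. At T, E2-KO replicate 1 alone gave 13 of the 25 listed. Over the 10 libraries 61 were listed with an end within 500 kb of Sox17, Gata6, Gata4, Pax6, Cdx2 or Otx2. Of these 56 spanned at least 5 Mb, none lay between 2 and 5 Mb, and each of the 56 rested on 2 to 4 reads. E1&E3-dKO replicate 2, which lists the most interactions of all libraries, gave 27 of the 61. A lone one of the 60 distinct interactions was in more than 1 library, beside 5.29% of 13952 over the genome. It joined 147.515 and 147.715 Mb of chromosome 5, to the left of Cdx2, with 16 reads in WT replicate 1 and 17 in E1-KO replicate 1, and its right end lies on the left boundary of the TAD over Cdx2.

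The other short interactions near these loci were each in 1 library. E1-KO replicate 1 also joined 147.485 and 147.715 Mb near Cdx2 with 14 reads. WT replicate 1 joined 105.365 and 106.035 Mb, to either side of Pax6, with 8 reads. E1&E3-dKO replicate 2 joined 49.285 Mb, within 10 kb of Otx2, to 49.335 Mb with 13 reads.

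T had the most listed interactions of the 7 loci, 25 beside 15 at Cdx2 and 14 at Pax6. E2-KO replicate 1 gave 13 of those at T, 2 at Cdx2 and 1 at Pax6, and without it T was not first. Of the 25 at T, 23 spanned 0.93 to 1.19 Mb. They joined the stretch from 8.135 to 8.365 Mb, at -495 to -265 kb from T, to the stretch from 7.105 to 7.295 Mb. E2-KO listed 13 and 3 of them, E3-KO 2 and 2, E1-KO 2 and 0, WT 1 and 0 and E1&E3-dKO 0 and 0. Reads summed over them were 128 and 38 (E2-KO), 18 and 17 (E3-KO), 17 in E1-KO replicate 1 and 6 in WT replicate 1. The near ends reach up to the boundary at 8.355 Mb, and the far ends span the place where the long TADs begin. The window ends at 8.13 Mb, so contacts farther from T were not counted.

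The libraries also differed in how many interactions under 2 Mb they listed in all, and genotype and list size were not told apart here. Over the genome there were 939 and 527 such interactions (E2-KO), 228 and 287 (E3-KO), 787 and 207 (E1-KO), 357 and 43 (WT), and 108 and 342 (E1&E3-dKO). E2-KO replicate 1 listed the most short interactions and, with 13, the most near T. E1&E3-dKO replicate 2 listed more short interactions than both E3-KO libraries and none of those near T. With 43 in all, WT replicate 2 listed few anywhere. How the contacts near T relate to list size was not tested.

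The same bin pairs near T came back in several libraries. The pair of 7.155 and 8.135 Mb was in both E2-KO and both E3-KO libraries and in no other, with 14 and 22 reads (E2-KO) and 13 and 8 reads (E3-KO), a pattern shared by 4 of 13952 distinct interactions (0.0287%) and chosen after its values were seen. The pair of 7.245 and 8.275 Mb was in the same 4 libraries and in E1-KO replicate 1, with 5 to 10 reads. Matched within 1 bin, the pairs with far ends at 7.155 and 7.245 Mb are gained in E2-KO, where 5.36% of interactions were, and in E3-KO, where 0.733% were. E1-KO and E1&E3-dKO gained none at T, beside 1.25% and 0.197%. The pair of 7.175 and 8.355 Mb was in E2-KO replicate 1 with 13 reads and, within 1 bin, in WT replicate 1 with 6 reads, so contact between these stretches was not confined to knockouts.

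**Figure D4:**
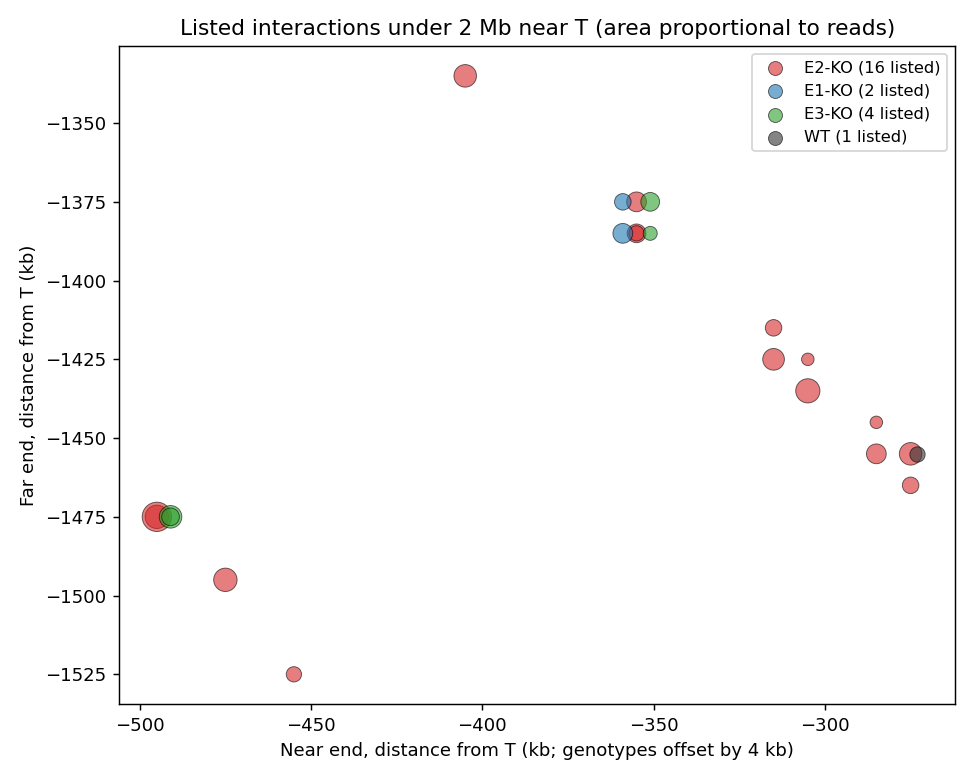
Interactions under 2 Mb listed near T, with the distance of the near end from T (horizontal axis, kb) against that of the far end (vertical axis, kb); each circle is a pair in 1 library, its area is proportional to its reads and its colour is the genotype, and genotypes are offset sideways by 4 kb steps. The circles fall on a pair of descending lines, and 16 of 23 are from E2-KO.

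The contacts near T were ordered in a particular way. As the near end moved toward T the far end moved away, so that the midpoint of the pairs stayed almost fixed. These are mm9 positions, and whether the cells carry the sequence left of T in the order of mm9 was not tested, which limits what the contacts and the long TADs there mean. In 17 of 23 the midpoint lay between 7.76 and 7.77 Mb, in 6 libraries, and in the other 6 between 7.64 and 7.645 Mb, in 4 libraries. These midpoints were looked for after the values were seen. The remaining 2 interactions at T, both in E3-KO replicate 2, spanned over 5 Mb and rested on 3 and 5 reads.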

How the data were processed

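Per the labels, the libraries are exo-Hi-C of mouse embryonic stem cells grouped by genotype; mm9, HiC-Pro 2.10.0 and HOMER are named in the submitters' processing notes, with no role given. The deposited TAD lists give edges and a score from the authors, never under 1.5. The deposited interaction lists name pairs of 10 kb bins with their unscaled read count, p-value, adjusted p-value (none above 0.01) and, from the authors, a bias ratio of each bin. The tool behind them is not given in the sources used here. Each library has 2 of the 20 files and takes its group from the labels; WT replicate 2 lists each pair in both orientations (932 lines, 466 pairs), used once.

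Locus positions and the lists used were chosen with earlier results of these data known. Boundaries of different libraries within 20 kb of a shared one, and interactions within 1 bin at both ends, were taken as the same. Boundaries matched through a shared one can thus lie farther than 20 kb from each other. Windows began at 3 Mb of each chromosome. Tests were exact permutations with Benjamini-Hochberg adjustment over 2582 windows, in Python 3.11.15 with numpy 2.4.6 and pandas 2.3.3, tested on simulated data. All 7 loci are named; boundaries named are the nearest on each side in at least 5 libraries, those in all 10, and up to 3 per locus lost or gained in a genotype, and interactions named are those in at least 2 libraries. Others were named after their values were seen, among them the short interactions of 1 library. Shares over the genome of patterns that follow the values of a locus, as at Gata6, Cdx2, Otx2, Pax6 and T, are descriptions only. Other lineage genes were not placed, since the gene table at hand is on GRCm38.p6; it gave only gene order. Total depth is unknown, and no interval is given.

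Alternatives were other scores, windows, merging and matching distances, equal numbers of TADs, scaling, titles, replicate numbers and each library left out.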

Additional observations from a re-analysis of the deposited data

How the results depend on the processing

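No alternative gave a locus an adjusted p under 0.05: the smallest was 1.0 for boundary counts and TAD lengths and 0.350 for the spread within genotypes. For boundary counts and TAD lengths the design fixed this outcome, since the smallest p of so few regroupings cannot pass the adjustment at a lone locus. It therefore does not show that the results are robust. The difference at T kept its sign in every alternative run, from 1.0 (window of 250 kb) to 4.5 (window of 1 Mb), and from 2.5 to 3.5 with 1 library left out; with counts divided by the library mean the difference was 0.99. Signs turned elsewhere. With a score of at least 2 the difference was 0.25 at Cdx2 and 0.5 at Otx2, with the same number of best TADs -1.38 at Pax6, with a window of 1 Mb 0.25 at Otx2, and with counts divided by the library mean -0.01 at Gata4 and -0.21 at Pax6. Within titles it was 1.0 at Cdx2 (w326), and -1.0 at Pax6 and 0.6 at Otx2 (others). With 1 library left out it ranged from -1.5 to 0.5 at Cdx2, from -1.75 to 1.25 at Otx2, from 0.25 to 2.25 at Gata4 and from -0.07 to 1.12 at Pax6. TAD length at Otx2 ranged from -0.97 to 1.18, and was -0.63 without w326 titles and -0.21 with the title as a block. A score of at least 2 left no TAD over Otx2 or Cdx2 in WT, so no length could be compared. The cause of these turns was not tested.

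Replicate numbers did not pair the libraries: deviations of same-numbered libraries from their group means correlated between -0.14 and 0.19 over windows. With the replicate block the difference at T was 3.0 (exact permutation p = 0.04, the smallest possible), at Gata6 3.0, at Gata4 1.25, at Pax6 0.62, at Cdx2 -0.5, at Otx2 -0.25 and at Sox17 0.0. No locus was called, and with that smallest p a lone locus could not have been.

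Matching boundaries within 10 kb left 1 in at least 5 libraries at Sox17, and E2-KO then lost 3 and gained 5 and E3-KO gained 1. Matching within 50 kb gave 4 such boundaries at Gata6, losses of 0 in E1-KO, E2-KO and E3-KO, and gains of 1 in E1-KO, 1 in E3-KO and 4 in E1&E3-dKO. A score of at least 2 left 0 boundaries in at least 5 libraries at Sox17, Gata6, Gata4, Pax6, Cdx2, Otx2 and T, with 0 lost in any genotype and gains of 0 in E1-KO, 1 in E2-KO and 0 in E1&E3-dKO. The same number of best TADs left 1 such boundary at Sox17, 1 at Gata6, 1 at Pax6 and 2 at Cdx2, with losses of 2 in E1-KO, 4 in E2-KO, 2 in E3-KO and 1 in E1&E3-dKO and gains of 4 in E2-KO, 1 in E3-KO and 2 in E1&E3-dKO. The losses and gains at these settings have no share over the genome beside them, so they cannot be compared with it. Interactions per library at Gata4 were 2.0 with a window of 1 Mb. Few reads per bin pair, and 2 libraries per genotype, limit all of these.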
